A study of Mus musculus with 160 samples.

Results

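The comparison is that of tibialis muscle from Q175 mice on 30 mg/kg CHDI-00390576 with tibialis from Q175 mice on vehicle. Its members were chosen by the tissue, genotype and treatment in the sample titles: 8 libraries at 30 mg/kg and 8 on vehicle, 16 of the 160 libraries of the series. All 16 mice were Het(Q175) knock-ins on C57BL/6J, a model that carries the Huntington's disease mutation, a lengthened CAG tract, on a single allele of Htt. Oral b.i.d. dosing with CHDI-00390576 or vehicle began at 4 weeks of age and ran until tissue was taken at 6 months. Each group held 4 females (F1 to F4) and 4 males (M1 to M4), and each library came from 1 animal. Tibialis libraries of Q175 mice on 100 mg/kg and of wild-type (WT) mice on vehicle, 8 each, also entered the fit, where they shared in the estimate of the spread and in the filter on low counts. RNA came from the whole muscle, so fewer cells of a type and less RNA per cell cannot be told apart.

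CHDI-00390576 is an inhibitor of class IIa histone deacetylases, the enzymes that Hdac4, Hdac5, Hdac7 and Hdac9 encode. In skeletal muscle these proteins shuttle between nucleus and cytoplasm, and in the nucleus they bind MEF2 transcription factors and hold back their target genes. Hdac4 is known to rise after loss of the nerve and to act upstream of myogenin, of acetylcholine receptor genes and of the ubiquitin ligases of atrophy. A drug that blocks the catalytic pocket need not change the RNA of the deacetylases themselves, so levels of the deacetylases, of MEF2 factors and of MEF2 targets were described in that order. Tibialis lies directly under the skin of the leg, and keratins of skin and hair were followed as a measure of what the dissection took along.

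Library totals were 36.68 to 41.81 M estimated counts at 30 mg/kg and 36.34 to 44.88 M on vehicle (M for mega). Levels are in CPM, the count divided by the TMM-scaled library total in M, and a log2 fold change is 30 mg/kg over vehicle with its standard error (SE). The muscle label held. The 14 fast fibre genes summed to 64965 to 111936 CPM at 30 mg/kg and 51947 to 107772 CPM on vehicle, and Myh6, the cardiac myosin, had medians of 0.92 and 0.944 CPM. Xist and Ddx3y counts matched the labelled sex in all 16 libraries. Vehicle F3 held 58 counts of Ddx3y, against 0 to 3 in the other 7 females. Vehicle M4 held 104 counts of Xist, against 1 to 42 in the other 7 males. Of the 32 tibialis libraries of the fit, 31 matched their labelled sex. The library that did not match lay outside the comparison and was kept in the fit. Transcripts of the mitochondrial genome made up 28.2% to 39.4% of counts at 30 mg/kg (median 33.1%) and 24.7% to 44.6% on vehicle (median 28.2%). The share was over 35% in 30 mg/kg F1, M1, M2 and M3 and in vehicle M2 and M3, and at most 31.1% in the other 10.

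No tibialis gene was called at 30 mg/kg with edgeR. Of 14708 genes tested with edgeR, 0 passed an adjusted p of 0.05 (0%), and every adjusted p was at least 0.9998. At an unadjusted p under 0.05 there were 165 genes (1.12%), 76 of them higher (0.517%) and 89 lower (0.605%). DESeq2 on the same genes called 1 of 14325 (0.00698%), Lrrc15, with 194 at an unadjusted p under 0.05 (1.35%). No gene had its 8 values at 30 mg/kg all above or all below the 8 on vehicle. The median log2 fold change was -0.00106, with 7312 genes positive and 7396 negative. In the other groups of the fit, 100 mg/kg M1, WT F3 and WT M4 held summed brain markers of 1385, 1459 and 1001 CPM. Without the libraries with cortex transcripts, edgeR called 0 of 14808 genes. It then had 118 higher and 152 lower genes at an unadjusted p under 0.05.

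The comparison had the precision to bound most well expressed genes. The median SE was 0.21 on the log2 scale, and the 95% interval lay within 2-fold either way for 11926 genes (81.1%) and within 1.5-fold for 8006 (54.4%). Of the 6327 genes averaging 10 CPM or more in a group, 6159 (97.3%) lay within 2-fold and 5287 (83.6%) within 1.5-fold. Since edgeR called no gene, the values that follow are descriptions, with unadjusted p where one is given.

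**Figure D1:**
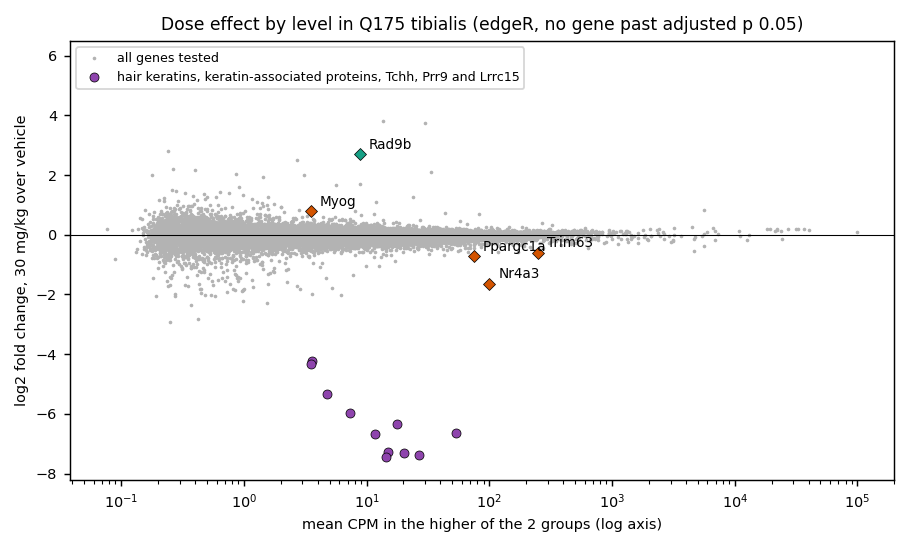
Each point is a gene tested, with its mean CPM in the higher of the 2 groups on a log axis and its log2 fold change, 30 mg/kg over vehicle, on the other. Most genes lie close to 0, while 11 points in purple (the tested hair keratins and keratin-associated proteins, Tchh, Prr9 and Lrrc15) lie between -4.22 (Krtap3-2) and -7.43 (Krt27), and diamonds mark 5 other genes by name.

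Hdac4, the class IIa member most tied to muscle denervation, had nearly the same median in both groups. It ranged over 15.6, 21.6 and 24.3 CPM (lowest, median, highest) at 30 mg/kg and 15.1, 21.7 and 24.8 CPM on vehicle. Its log2 fold change was -0.00 ± 0.12, with a 95% interval of -0.25 to 0.25. At the 95% level the interval therefore bounds the change fitted over both sexes to 0.25 log2 units in either direction. In males alone the value was -0.22 and in females 0.21.

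Hdac5, which muscle activity drives out of the nucleus, was lower in the middle of its range. Its levels were 7.39, 12.5 and 17.7 CPM at 30 mg/kg and 6.94, 17.8 and 22.2 CPM on vehicle, with none of the 8 treated libraries above the vehicle median. The groups overlapped, and the fold change was -0.37 ± 0.36 (edgeR, unadjusted p = 0.305). The 6 lowest Hdac5 libraries were 30 mg/kg F1, M1, M2 and M3 and vehicle M2 and M3, which are the 6 with the mitochondrial share above 35%. With that share as a covariate the fold change was -0.12.

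Hdac7, best known from blood vessels and T cells, ranged over 3.25, 4.95 and 8.46 CPM at 30 mg/kg and 2.7, 6.75 and 8 CPM on vehicle. Its fold change was -0.22 ± 0.31, and -0.00 with the mitochondrial share as a covariate. Hdac9, itself a MEF2 target in muscle, ranged over 7.68, 9.58 and 13.8 CPM at 30 mg/kg and 5.85, 11.2 and 19.5 CPM on vehicle (-0.19 ± 0.23). All 4 enzymes thus had overlapping groups and intervals that include 0. Of 14 other deacetylases and corepressors 0 had an unadjusted p under 0.05, and their median was -0.06. Of 15 kinases and partners of the class IIa enzymes, again 0 did (median -0.05). The salt-inducible kinase Sik3, which phosphorylates class IIa enzymes, was at 18.8, 21 and 23.9 CPM at 30 mg/kg and 18.8, 26 and 27.6 CPM on vehicle (-0.17 ± 0.13).

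The MEF2 factors, the DNA-binding partners of these enzymes, were close between groups. Mef2a ranged over 122, 190.2 and 224 CPM at 30 mg/kg and 138, 174 and 288 CPM on vehicle (-0.05 ± 0.19). Mef2c, which is tied to sarcomere upkeep, ranged over 503, 811 and 859.8 CPM at 30 mg/kg and 520.1, 689.7 and 1075 CPM on vehicle (0.03 ± 0.20). For both genes vehicle M2 and M3 were the highest of the 16 libraries. Mef2d ranged over 93.4, 101 and 116 CPM at 30 mg/kg and 78.6, 117 and 143 CPM on vehicle (-0.14 ± 0.11), with 0 of the 8 treated libraries above the vehicle median. Mef2b was too low to test, with at most 0.0568 CPM at 30 mg/kg and 0.0424 CPM on vehicle. Htt, the gene that carries the repeat, ranged over 5.37, 8.75 and 11.1 CPM at 30 mg/kg and 5.18, 8.66 and 10.7 CPM on vehicle (0.05 ± 0.19).

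**Figure D2:**
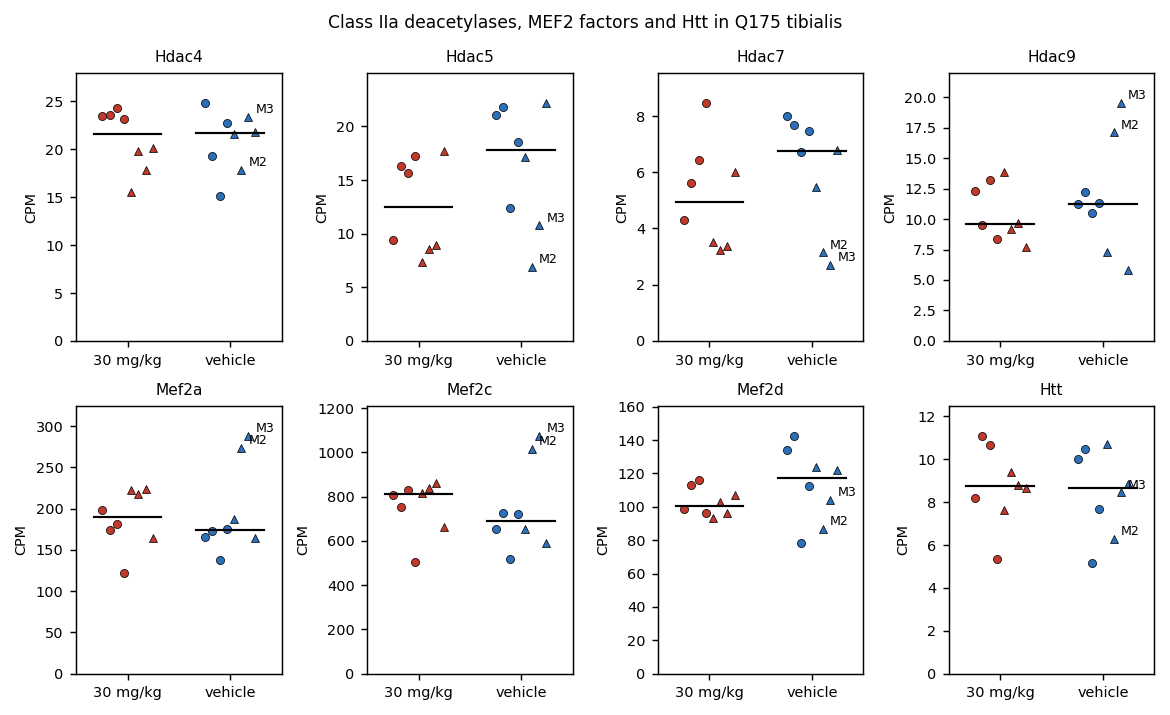
CPM of the 4 class IIa deacetylases, 3 MEF2 factors and Htt in each library, 30 mg/kg on the left and vehicle on the right of each panel, with females as circles, males as triangles and the group median as a line. The groups overlap in every panel, and vehicle M2 and M3, labelled, are the lowest pair on vehicle for Hdac7 and the highest pair for Hdac9, Mef2a and Mef2c.

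MEF2 targets of muscle lay on both sides of 0. Of 20 tested, 6 were positive and 14 negative, with a median of -0.09, beside 7312 positive, 7396 negative and -0.00 over all genes tested. Of these 20, 1 had an unadjusted p under 0.05 in the higher direction (Myog) and 1 in the lower (Ppargc1a). In males 6 were positive and 14 negative, and in females 11 and 9. Ckm, muscle creatine kinase, ranged over 1902, 2823 and 4765 CPM at 30 mg/kg and 1422, 5220 and 7308 CPM on vehicle. None of the 8 treated libraries was above the vehicle median for Ckm, yet the groups overlapped (-0.55 ± 0.38). The Ckm value was -0.18 with the mitochondrial share as a covariate. That covariate did not bring every gene closer to 0. With it Myog was at 0.88 and Ppargc1a at -0.82, against 0.79 and -0.72 in the main fit.

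Myog encodes myogenin, a muscle transcription factor that class IIa deacetylases govern through MEF2 and that is known to rise on denervation. Trim63 encodes MuRF1, an E3 ligase of muscle atrophy that myogenin is known to activate. They were, with Ppargc1a, the muscle genes of lowest p in the comparison, 1 higher and 1 lower, and their promoters are shown for that reason. Each window is the 250 bases before the RefSeq start in GRCm38.p6, on chr1:134289754-134290003 (plus strand) for Myog and chr4:134314870-134315119 (plus strand) for Trim63. Capitals mark matches to a MEF2-type motif, CTANNNNTA, and to E-boxes, CANNTG, the motif of myogenic basic helix-loop-helix factors, both searched on both strands.
Myog: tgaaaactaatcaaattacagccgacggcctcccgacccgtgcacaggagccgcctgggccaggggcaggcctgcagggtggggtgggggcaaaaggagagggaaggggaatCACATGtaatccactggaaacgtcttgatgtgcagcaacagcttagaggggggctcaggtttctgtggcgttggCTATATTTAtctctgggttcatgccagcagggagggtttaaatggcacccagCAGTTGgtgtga
Trim63: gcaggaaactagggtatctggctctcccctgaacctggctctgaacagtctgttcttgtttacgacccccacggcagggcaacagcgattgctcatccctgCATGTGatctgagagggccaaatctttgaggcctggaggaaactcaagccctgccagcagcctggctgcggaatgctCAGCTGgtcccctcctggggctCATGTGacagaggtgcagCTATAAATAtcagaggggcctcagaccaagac
In Myog the MEF2-type match starts 64 bases before the start and the E-boxes 138 and 12 bases before it. In Trim63 the MEF2-type match starts 32 bases before the start, where its letters include a TATAA, and the E-boxes start 149, 72 and 50 bases before it. Of the 32851 windows of the same length in the table, 19% hold CTANNNNTA and 66.2% hold CANNTG, so a match describes the window and does not identify a bound site.

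Myog was higher in the middle of its range at 30 mg/kg, and 2 treated libraries stood apart. It ranged over 1.18, 2.21 and 11.2 CPM at 30 mg/kg and 0.856, 1.82 and 2.93 CPM on vehicle, giving 0.79 ± 0.30 (edgeR, unadjusted p = 0.012). Treated F4 and F2 stood at 11.2 and 6.27 CPM, and the other 6 treated libraries lay inside the vehicle range. Without 30 mg/kg F4 the fold change was 0.46, and in males it was 0.50. Females on vehicle were all higher than males on vehicle, at 2.32 to 2.93 CPM against 0.856 to 1.32 CPM.

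Other genes of the denervation program lay on both sides of 0. Of 19 tested, 8 were positive and 11 negative (median -0.02), and Myog alone had an unadjusted p under 0.05. The acetylcholine receptor subunits Chrna1 (0.33 ± 0.19) and Chrnd (0.37 ± 0.29) were positive, while Musk (-0.39 ± 0.26) and Dok7 (-0.41 ± 0.30), which organise the synapse, were negative. Chrna1 ranged over 8.79, 12.2 and 16.1 CPM at 30 mg/kg and 6.4, 10.8 and 11.6 CPM on vehicle. Among 16 embryonic and regeneration genes, 9 were positive and 7 negative (median 0.03), with Myod1 at 0.29 ± 0.25 and Pax7, the satellite cell factor, at 0.03 ± 0.18.

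Trim63 was lower at 30 mg/kg in most libraries. It ranged over 125, 157 and 242 CPM at 30 mg/kg and 150.4, 212 and 509 CPM on vehicle, with 1 of 8 treated libraries, F4, above the vehicle median. The fold change was -0.61 ± 0.20, with a 95% interval of -1.01 to -0.20 (edgeR, unadjusted p = 0.00446). Vehicle F1, at 509 CPM, stood far above the rest, and without it the value was -0.41. Trim63 was negative in all 33 alternative settings, between -0.80 and -0.40.

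The second ligase of atrophy, Fbxo32 (atrogin-1), averaged 382 CPM at 30 mg/kg and 459 CPM on vehicle (-0.27 ± 0.25). Foxo1, the transcription factor upstream of both, averaged 23.4 and 29.9 CPM (-0.35 ± 0.34), and Foxo3 22 and 24.3 CPM (-0.14 ± 0.11). Of 19 atrophy and FoxO genes 15 were negative (median -0.10), with 2 at an unadjusted p under 0.05. The median was -0.26 without 30 mg/kg F2 and -0.25 without 30 mg/kg F4. Beside Trim63, the second gene of the list at that unadjusted p was Irs2, an insulin receptor substrate. It ranged over 0.227, 1.15 and 2.9 CPM at 30 mg/kg and 0.633, 2.29 and 14.8 CPM on vehicle (-1.46 ± 0.68). In the growth hormone and IGF axis 7 of 12 were positive (median 0.04), with Igf1 at 0.30 ± 0.27.

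Ppargc1a encodes PGC-1alpha, a coactivator of mitochondrial and slow fibre genes that contraction raises and MEF2 drives. It ranged over 30.9, 46 and 54.7 CPM at 30 mg/kg and 30.5, 60.4 and 192 CPM on vehicle, with 0 of 8 treated libraries above the vehicle median. The groups overlapped, since vehicle F2, F3 and M1 lay at 30.5 to 39.6 CPM. The fold change was -0.72 ± 0.28 (edgeR, unadjusted p = 0.0153), and it was -0.37 without vehicle F1. In females it was -1.06 and in males -0.35, a difference that did not pass edgeR's interaction test.

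Genes of fatty acid oxidation lay slightly lower. Of 25 tested 20 were negative, with a median of -0.15, and Ppargc1a alone had an unadjusted p under 0.05. Without vehicle F4 the count was 15 of 25 and the median -0.09. Acadvl and Hadha, enzymes of beta-oxidation, were at -0.17 ± 0.16 and -0.12 ± 0.12, and Cpt1b, which admits fatty acids to the mitochondrion, at -0.10 ± 0.16. Of 23 glycolysis and glycogen genes 17 were negative (median -0.12), and that median was -0.20 without 30 mg/kg F4 and 0.00 with the mitochondrial share as a covariate. Hk2, muscle hexokinase, ranged over 151, 188 and 283 CPM at 30 mg/kg and 141, 218 and 675 CPM on vehicle (-0.44 ± 0.20, edgeR, unadjusted p = 0.0319). Its highest value was again vehicle F1, and without that library the fold change was -0.17.

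Transcripts of the mitochondrial genome were positive for 13 of 13 genes, with a median of 0.19 and 0 at an unadjusted p under 0.05. They come from 1 polycistronic genome and move together within a library, so 13 genes are not 13 observations. mt-Nd6 ranged over 4469, 6784 and 8689 CPM at 30 mg/kg and 3820, 4621 and 11461 CPM on vehicle (0.22 ± 0.26). The highest library was vehicle M2, followed by 30 mg/kg M2, and without vehicle M2 the mt-Nd6 value was 0.39, without 30 mg/kg F1 0.13. In males alone the list's median was 0.00. Nuclear genes of oxidative phosphorylation were positive for 25 of 40 (median 0.05), and without 30 mg/kg F4 6 of 40 were positive (median -0.09).

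Immediate early genes, which contraction, stress and the handling of tissue induce within minutes, showed the widest negative median among the muscle and stress lists (-0.28, 15 of 18 negative). Nr4a3, an orphan nuclear receptor induced by exercise, ranged over 2.75, 11.6 and 107 CPM at 30 mg/kg and 7.17, 20.8 and 433 CPM on vehicle. Its fold change was -1.65 ± 0.65 (edgeR, unadjusted p = 0.0174), and vehicle F1, F4 and F2 at 433, 163 and 129 CPM were its highest libraries. Treated F4 followed at 107 CPM. Atf3 (-0.87 ± 0.54), Egr1 (-0.93 ± 0.79) and Fos (-0.57 ± 0.63) were negative with wide errors, and Jun was at -0.33 ± 0.19. Atf3 was at -1.72 without 30 mg/kg M2, -0.41 without vehicle F1 and -0.55 without vehicle M3.

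These values were uneven over animals and sexes. Summed immediate early genes reached 939 CPM in vehicle F1, 486 in vehicle F2 and 378 in vehicle F4, against 537 in 30 mg/kg F4, and the other 12 libraries lay between 126 and 260 CPM. In males the list had 9 positive and 9 negative genes and a median of 0.01, in females 2 and 16 and a median of -0.49. Without 30 mg/kg F4 the median was -0.44 and without vehicle F1 -0.13. Without the 6 libraries richest in keratin the list had 9 positive and 9 negative genes, with a median of -0.03. Trim63, Ppargc1a, Hk2 and Nr4a3 share vehicle F1 as their highest library, and what set that library apart was not tested.

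**Figure D3:**
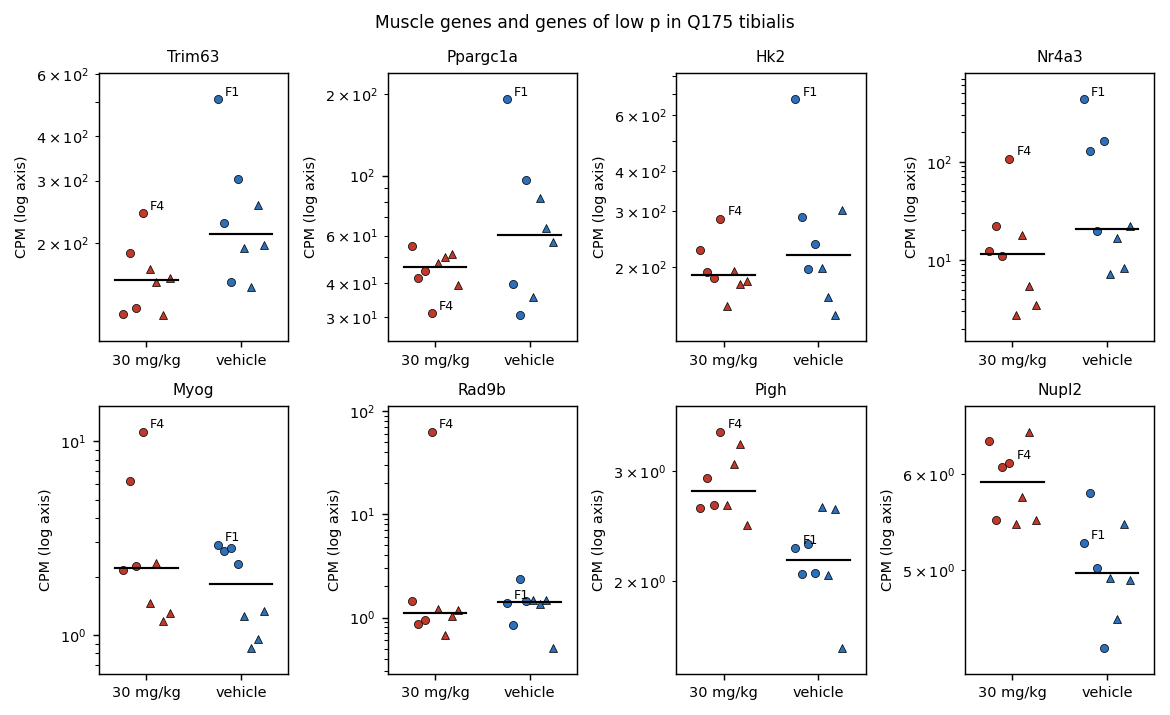
CPM on a log axis of 8 genes in each library, 30 mg/kg left of vehicle, with females as circles, males as triangles, the group median as a line, and vehicle F1 and 30 mg/kg F4 labelled. Vehicle F1 is the highest library for Trim63, Ppargc1a, Hk2 and Nr4a3, and 30 mg/kg F4 for Myog, Rad9b and Pigh. No panel has groups that are fully apart.

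Contractile genes lay close to their vehicle levels. Fast fibre genes had 4 positive and 10 negative members (median -0.04), and Myh4, the fast myosin that dominates tibialis, ranged over 16353, 21947 and 26752 CPM at 30 mg/kg and 14322, 24623 and 32685 CPM on vehicle (-0.14 ± 0.15). Actn3, the fast Z-disc protein, ranged over 1950 to 3398 CPM at 30 mg/kg and 1328 to 4068 CPM on vehicle (-0.25 ± 0.22), and was at -0.04 with the mitochondrial share as a covariate. Slow fibre genes had 10 of 14 negative (median -0.18), with Myh7, the slow myosin, averaging 9.64 CPM at 30 mg/kg and 14.5 CPM on vehicle (-0.68 ± 0.69). The slow median was -0.35 without 30 mg/kg F2, -0.09 without vehicle F4 and 0.01 in males. Shared sarcomere genes (16 of 22 negative, median -0.05) and genes of calcium handling and excitability (13 of 20 negative, median -0.09) had 0 members at an unadjusted p under 0.05.

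Interferon-induced genes were positive for 14 of 16, with a median of 0.16, and 2 had an unadjusted p under 0.05. Ifit2, an antiviral RNA-binding protein, ranged over 2.24, 3.19 and 5 CPM at 30 mg/kg and 1.91, 2.29 and 4.49 CPM on vehicle (0.41 ± 0.18, 7 of 8 treated libraries above the vehicle median). Oasl2, of the oligoadenylate synthetase family, ranged over 1.33, 1.97 and 2.85 CPM at 30 mg/kg and 1.35, 1.52 and 2.02 CPM on vehicle (0.32 ± 0.16). The list's summed level was 59.7 to 77.4 CPM at 30 mg/kg and 58.3 to 75.5 CPM on vehicle, so the groups overlapped. The median stayed above 0 in all 33 alternatives, from 0.07 to 0.25. In males 10 of 16 genes were positive and in females 14 of 16.

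Myelin and Schwann cell genes were positive for 11 of 11, with a median of 0.20 and 0 at an unadjusted p under 0.05. Pmp22, a peripheral myelin protein, averaged 21.9 CPM at 30 mg/kg and 18.1 CPM on vehicle (0.28 ± 0.24). Summed markers were 47.8 to 72.5 CPM at 30 mg/kg. On vehicle they were 39.3, 29.1 and 28.4 CPM in M2, M3 and M4 and 53.9 to 61.1 CPM in the other 5. Those 3 vehicle males lay below all treated libraries, and how much nerve each sample held was not tested. In females 8 of 11 were positive, with a median of 0.10.

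**Figure D4:**
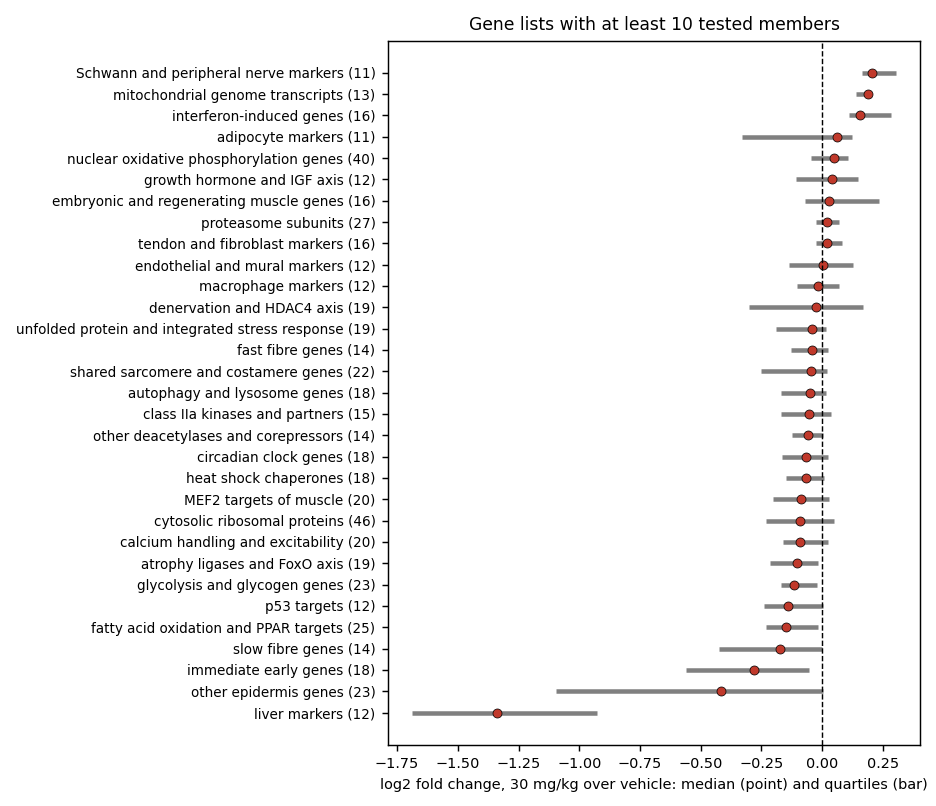
Median (point) and quartiles (bar) of the log2 fold change, 30 mg/kg over vehicle, in the 31 gene lists with at least 10 tested members, whose number stands in brackets, with the median of all genes as a dashed line. Most muscle lists lie within 0.2 of 0, with liver markers at -1.34 and other epidermis genes at -0.42 at the low end and Schwann markers at 0.20 at the high end.

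Among the genes of smallest p on the higher side, most had small differences shared across libraries. Pigh, a subunit of the enzyme that starts GPI anchor synthesis, ranged over 2.46, 2.79 and 3.46 CPM at 30 mg/kg and 1.57, 2.16 and 2.63 CPM on vehicle, with 8 of 8 treated libraries above the vehicle median. Its fold change was 0.40 ± 0.13 (edgeR, unadjusted p = 0.00569), against -0.17 in the heart of the same animals. The difference between tibialis and heart was 0.57 ± 0.15, with an adjusted p of 0.992 by limma. Nupl2, a nucleoporin, ranged over 5.45, 5.91 and 6.5 CPM at 30 mg/kg and 4.31, 4.97 and 5.79 CPM on vehicle (0.23 ± 0.08, 8 of 8).

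The others of that group include surface and signalling proteins at about 1 to 10 CPM. Ptger4, a prostaglandin E2 receptor (0.65 ± 0.26), Adm, the vasodilator adrenomedullin (0.56 ± 0.22), Pcdh18, a protocadherin (0.46 ± 0.17), and Dnhd1, a dynein heavy chain domain protein (0.57 ± 0.23), had 8 of 8 treated libraries above the vehicle median. Sema6a, a semaphorin (0.35 ± 0.14), and Gpr137b, a lysosomal membrane protein (0.39 ± 0.16), had 7 of 8. Rps3a3 (0.54 ± 0.22) is a near copy of a ribosomal protein gene, so its reads may be shared with it. The genes were ordered by p, so the number of treated libraries above the vehicle median describes them and adds no support.

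Rad9b, of the checkpoint clamp family, was high in a single library of the comparison. It stood at 63.1 CPM in 30 mg/kg F4 and at 0.679 to 1.44 CPM in the other 7 treated libraries, against 0.508 to 2.37 CPM on vehicle. In the other groups of the fit it reached 16.6 CPM in WT M2 and 3.12 CPM in 100 mg/kg M4. The fold change was 2.69 ± 0.97 with F4 and -0.45 without it. Treated F4 lay over 2-fold above all other 15 for 87 genes and over 2-fold below them for 331. Its summed ribosomal protein genes came to 10346 CPM, against 4170 to 5646 CPM in the other treated libraries and 4208 to 7590 CPM on vehicle. Without 30 mg/kg F4 the comparison had 0 calls with edgeR, and 74 higher and 174 lower genes at an unadjusted p under 0.05.

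Hair gave the widest differences of the comparison, all lower at 30 mg/kg. Krt71, Krt27 and Krt25 are keratins of the inner root sheath of the hair follicle. Krt71 was counted in 1 of 8 libraries at 30 mg/kg, M4, at 0.373 CPM. On vehicle it stood at 136 CPM in F3, 22.1 in F1 and 4.06 in M4 and at 0 to 0.0257 CPM in the other 5. The fitted log2 fold change was -7.32 ± 2.03 (edgeR, unadjusted p = 0.00109). It was -12.41 without 30 mg/kg M4, -5.44 without vehicle F3 and -9.65 without the 6 libraries of the comparison richest in keratin. Those 6 include 30 mg/kg M4, the only treated library with Krt71, but not vehicle M4. The -9.65 therefore rests on vehicle M4 set against 0 counts. Without vehicle F1, F3 and M4 the fold change was 2.37, but these 3 libraries were picked for their hair keratins. The change of sign follows from that choice and from 30 mg/kg M4. A fold fitted against a group that is nearly all 0 depends on the fit's prior and is not a bound.

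Krt27 reached 0.249 CPM at 30 mg/kg and 103 CPM on vehicle (-7.43 ± 2.06), and Krt25 the same 2 maxima (-7.29 ± 2.02). Without vehicle F1, F3 and M4, picked for their hair keratins, they stood at 3.83 and 2.61. Without the 6 libraries richest in keratin they stood at -8.39 and -7.52. Those 6 include 30 mg/kg M4 but not vehicle M4, at 2.03 and 2.47 CPM, on which these values mostly rest. Trichohyalin (Tchh), of the root sheath and hair medulla, reached 0.945 CPM at 30 mg/kg and 374 CPM on vehicle (-6.64 ± 1.97). Prr9, a proline-rich protein, reached 0.423 and 195 CPM (-7.38 ± 2.11). For all 5 genes the highest library at 30 mg/kg was M4 and the highest on vehicle was F3. The windows before the starts of the 3 keratins are shown since they sum up this group, with TATAA, the TATA box letters, in capitals on either strand.
Krt71: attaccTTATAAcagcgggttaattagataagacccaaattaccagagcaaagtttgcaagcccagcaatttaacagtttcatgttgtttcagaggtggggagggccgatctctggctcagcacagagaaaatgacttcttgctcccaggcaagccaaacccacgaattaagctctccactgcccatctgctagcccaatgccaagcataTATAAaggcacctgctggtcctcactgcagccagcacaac
Krt25: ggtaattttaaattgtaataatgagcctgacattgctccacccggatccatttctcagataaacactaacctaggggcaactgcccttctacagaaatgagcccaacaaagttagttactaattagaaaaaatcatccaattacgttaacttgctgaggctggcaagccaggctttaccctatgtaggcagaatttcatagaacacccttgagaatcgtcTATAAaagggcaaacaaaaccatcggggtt
Krt27: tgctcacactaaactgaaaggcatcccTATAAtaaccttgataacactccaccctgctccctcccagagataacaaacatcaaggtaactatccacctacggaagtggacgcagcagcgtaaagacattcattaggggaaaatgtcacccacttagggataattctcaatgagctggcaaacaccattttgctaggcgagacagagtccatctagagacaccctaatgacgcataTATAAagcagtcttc
They are chr15:101743098-101743347 for Krt71, chr11:99322952-99323201 for Krt25 and chr11:99351119-99351368 for Krt27, all on the minus strand of GRCm38.p6 and from RefSeq. TATAA starts 40, 30 and 15 bases before the start in Krt71, Krt25 and Krt27, with a farther match in Krt71, where the letters of both strands overlap, and in Krt27. Of all 32851 windows, 22.8% hold TATAA on either strand.

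The other hair genes were high in the same libraries. Of 20 hair keratins 19 were in the table and 4 passed the filter on low counts, and of 16 keratin-associated proteins 3 passed. The filter counted all 32 tibialis libraries, and with only the 16 libraries Krt71, Krt27, Krt25, Krt73, Krtap7-1, Krtap8-1, Krtap1-5, Tchh, Prr9 and Lrrc15 did not pass it. The count of 7 list members at an unadjusted p under 0.05 (edgeR), all lower, is therefore a description. Summed hair keratins were at 3.06 CPM in 30 mg/kg M4 and 0 to 0.142 CPM in the other 7 treated libraries. On vehicle they were 671 CPM in F3, 89.1 in F1, 16.8 in M4 and 0 to 0.24 in the other 5. Keratin-associated proteins, which bind keratin in the hair shaft, summed to 1.87 CPM in 30 mg/kg M4 and at most 0.144 in the rest. On vehicle they were 491, 54.7 and 10.2 CPM in F3, F1 and M4 and at most 0.153 in the other 5. In the other groups of the fit, summed hair keratins were 30.8 CPM in 100 mg/kg F1, 9.65 in 100 mg/kg F3 and 11.3 in WT F1. The rest of those groups held at most 2.41 CPM. Keratin-associated proteins there reached 36.4 CPM, in 100 mg/kg F1. Krtap and hair keratin genes are clustered families with similar sequences, and reads may be shared among them.

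Epidermis outside the hair was spread over both groups. The 14 epidermal keratins summed to 215 CPM in M4, 83.8 in F1 and 60.7 in M3 at 30 mg/kg, with 1.68 to 3.35 CPM in the other 5. On vehicle they summed to 280 CPM in F3, 56.3 in F1, 37.3 in M2, 20.6 in F2 and 9.58 in M4, with 1.51 to 2.12 CPM in the other 3. Krt10 and Krt1, of the upper epidermis, were at 0.17 ± 0.98 and 0.18 ± 1.65, while Krt14 and Krt5, of its basal layer and the outer root sheath, were at -1.78 ± 1.89 and -1.04 ± 1.87. Of 8 epidermal keratins tested 3 were positive and 5 negative, with 0 at an unadjusted p under 0.05. Of 23 other epidermis genes 17 were negative (median -0.42), and 1, Tchh, had an unadjusted p under 0.05 (edgeR). These folds were uneven over the sexes. In males alone the medians were 2.83 for epidermal keratins and 2.15 for other epidermis genes. Krt14 was at 3.11 in males and -4.56 in females. Treated M4 thus held almost as much epidermal keratin as vehicle F3 and far less hair keratin.

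**Figure D5:**
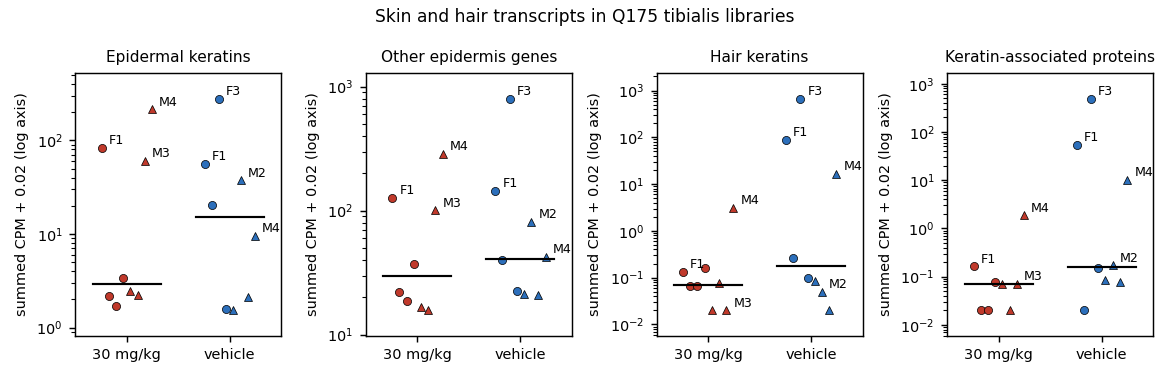
Summed CPM plus 0.02, on a log axis, of 4 skin and hair lists in each library, 30 mg/kg left of vehicle, with females as circles, males as triangles and the group median as a line. Epidermal keratins are high in 3 treated libraries and in vehicle F3, F1 and M2. Among the libraries shown, hair keratins and keratin-associated proteins exceed 10 CPM only in vehicle F3, F1 and M4.

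Lrrc15, a leucine-rich repeat membrane protein of activated fibroblasts, was the single call of DESeq2 on the genes tested (log2 fold change -4.27, DESeq2 adjusted p = 0.00531). It ranged over 0, 0.0992 and 0.201 CPM at 30 mg/kg. On vehicle it stood at 23.9 CPM in F3 and 2.98 in F1 and at 0.14 to 0.309 CPM in the other 6. Its 3 highest libraries, vehicle F3, F1 and M4, were those of the hair keratins, and edgeR gave it -4.31 ± 1.05 (adjusted p = 0.9998). Without vehicle F3 its fold change was -2.33, and without vehicle F1, F3 and M4, picked for their hair keratins, it was -0.85. Without the 6 libraries richest in keratin it was -1.18. With its own filter only, DESeq2 called 11 of 26055 genes (0.0422%), all lower, with 391 at an unadjusted p under 0.05 (1.5%). These were Lrrc15, 8 genes named Krtap and 2 predicted genes (Gm11565 and Gm6395), and apart from Lrrc15 all had 0 counts in every treated library, so no fold is given. Their means on vehicle were 0.0584 to 3.9 CPM.

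Gjb2, the gap junction protein connexin 26 of skin, ranged over 0.452, 0.563 and 1.33 CPM at 30 mg/kg and 0.459, 0.789 and 20.8 CPM on vehicle (-1.99 ± 0.62), with F3 again on top. Without vehicle F3 its fold change was -0.69. In all, vehicle F3 lay over 2-fold above the other 15 libraries for 169 genes, more than any other library. Without vehicle F3 the comparison had 0 calls with edgeR, and 107 higher and 138 lower genes at an unadjusted p under 0.05. Without vehicle F1, F3 and M4 it had 0 calls with edgeR, and 68 higher and 45 lower such genes.

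Markers of other tissues were also uneven over libraries. Liver markers summed to 2.45 to 39.9 CPM at 30 mg/kg, and to 77.5 CPM in vehicle F4 and 2.16 to 22 CPM in the other vehicle libraries. Of 12 liver markers 9 were negative with a median of -1.34. The median was -2.41 without 30 mg/kg F3, and without vehicle F4 10 were positive with a median of 0.66. Alb, serum albumin, averaged 2.74 CPM at 30 mg/kg and 7.76 CPM on vehicle (-1.34 ± 1.09). Adipocyte markers summed to 709.1 CPM in 30 mg/kg M1 and 733 CPM in vehicle F3, against 211 to 406 CPM elsewhere. Pparg, the nuclear receptor of fat cells, ranged over 1.72, 2.73 and 5.02 CPM at 30 mg/kg and 2.38, 4.25 and 7.31 CPM on vehicle (-0.56 ± 0.22, edgeR, unadjusted p = 0.0146). The Pparg value was -0.999 in females and -0.11 in males. Endothelial markers (6 of 12 positive), macrophage markers (6 of 12) and tendon and fibroblast markers (9 of 16) had medians between -0.02 and 0.02. The brain markers Slc1a2 and Snap25 stood at 2.04 and 1.71 CPM in 30 mg/kg M1 and at 3.68 and 1.92 CPM in 30 mg/kg M2. In the other libraries of the comparison both were at most 0.595 CPM. Summed brain markers were 226 to 284 CPM at 30 mg/kg and 200 to 342 CPM on vehicle. The part of skin, fat, liver and brain in the genes above was not tested beyond these values.

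Sex and tissue were tested as differences of the dose effect. Between females and males 0 of 14708 genes differed with edgeR (304 at an unadjusted p under 0.05, 2.07%), the smallest p being that of Top2a, a proliferation gene (-4.72 ± 1.14). Between tibialis and heart of the same animals 0 of 14029 differed with limma (324 at an unadjusted p under 0.05, 2.31%). At 100 mg/kg, which shares the vehicle libraries, 0 genes passed with edgeR (758 at an unadjusted p under 0.05, 5.15%). That group includes M1, where summed brain markers were 1385 CPM, against at most 324 CPM in its other libraries. All values given here for 100 mg/kg include M1. Against vehicle, the log2 fold changes at 30 and at 100 mg/kg were -0.61 and -0.79 for Trim63, -0.72 and -0.59 for Ppargc1a, -1.65 and -1.79 for Nr4a3, 0.79 and 0.57 for Myog, and -7.32 and -3.91 for Krt71. Since both doses are set against the same 8 vehicle libraries, the like values share vehicle F1 and F3 and are no independent repeat. Between the doses 0 genes passed with edgeR (418 at an unadjusted p under 0.05, 2.84%).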

How the data were processed

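Illumina libraries were made from enriched subfractions of total tibialis RNA (miRNeasy), per the labels. The submitters' processing notes name CASAVA 1.8.2, with aligner, genome build, annotation and strand setting not given in the sources used here. The deposited count table holds the authors' estimated counts, of which 24.11% above 0 were not whole in tibialis (tolerance 0.001), and these were rounded. The deposited FPKM table holds the authors' FPKM, used in an alternative with a pseudocount of 0.1 or 1 and at least 0.1 in 8 libraries. Of 43432 identifiers 42462 had a symbol.

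All 32 tibialis libraries were fitted with edgeR 4.0.16 (R 4.3.3, filterByExpr, TMM, robust quasi-likelihood F test, group and sex) and adjusted by Benjamini-Hochberg over 14708 genes at 0.05. SEs came from the F statistics. DESeq2 1.42.0 gave the alternative, and limma 3.58.1 tested tibialis minus heart in the same animals (log2 CPM, prior count 2). The steps were tested on simulated data. The genes named were Htt, the class IIa and MEF2 genes, the 12 of smallest p per direction with at least 1 CPM, the call of DESeq2, the 2 of smallest p in each of 42 lists and 5 keratin genes. Further list members were given as examples, and some genes under the rule are not reported here. Members, lists and rules were chosen with earlier results of these data known. Y-linked genes and RNAs of X inactivation were left out of the named genes. Depth covers counting error only, and the labels name separate animals but no batch. Promoter windows came from RefSeq (GRCm38.p6), where all 5 symbols searched matched.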

Additional observations from a re-analysis of the deposited data

Results flagged for a closer look

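Of 148 groups of 8 values examined, 20 had 1 library far from the other 7 (Dixon's 95% criterion), and chance gives about 1 in 20 for separate tests. These groups share libraries and related genes, so they are not separate tests, and the 20 cannot be set against that rate. Values are log2 CPM with a prior count of 2. In 30 mg/kg F4, Rad9b stood at 5.98 and Rps3a3 at 1.124, summed nuclear oxidative phosphorylation genes at 14.47, cytosolic ribosomal proteins at 13.34 and proteasome subunits at 11.79, all above the other 7. In the same library summed MEF2 factors, at 9.49, and the growth hormone and IGF axis, at 8.82, lay below the other 7.

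In 30 mg/kg M4 the hair genes lay above the other 7 treated libraries, which were near 0 counts. Krt71 stood at -1.24, Krt27 and Krt25 at -1.75 each, Krt73 and Krtap7-1 at -1.52 each, Krtap1-5 at -1.63, Krtap8-1 at -0.871, Prr9 at -1.08 and Tchh at -0.00793. Summed hair keratins there were at 1.64 and summed keratin-associated proteins at 0.937. On vehicle, Gpr137b stood at 1.11 in M2 and summed adipocyte markers at 9.52 in F3, each above the other 7.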

How the results depend on the processing

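The count of genes called stayed at 0 with edgeR in 29 alternatives and with limma on FPKM in 2. These were RLE scaling, no filter, only the 16 libraries, no sex term, column name form as a covariate, each sex alone, without 3 libraries of the other groups with cortex transcripts, without 6 keratin-rich libraries, and leaving out any 1 of the 16 libraries (0 to 0 called). They also include 3 chosen after the data were seen: without the 3 hair-rich vehicle libraries, without mitochondrial genes, and with the mitochondrial share as a covariate. At an unadjusted p under 0.05 there were 56 higher and 51 lower genes without vehicle F1, 107 and 149 without vehicle M2, and 99 and 150 without vehicle M3. DESeq2 called 1 gene on the same genes and 11 with its own filter only, a setting also chosen after the data were seen. With the replicate block 0 genes were called (73 higher and 72 lower at an unadjusted p under 0.05). Same-numbered libraries come from different animals, their deviations correlated at -0.37 for F3 and 0.16 to 0.39 for the other 7, and 0 matched best with its own number, so the numbers do not pair the libraries. The sex comparison stayed at 0 called with only the 16 libraries, and the heart comparison with a prior count of 0.5. Of 100 named genes tested, 62 kept their sign in all of the 33 alternatives that tested them, and 89 of the single values moved by over 1 SD. Some of the 62 were not tested in every alternative, such as Lrrc15, which was tested in 28. RLE moved the median of all genes from -0.00106 to -0.00710. Counting depth limits genes under about 1 CPM most.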
